A study of Mus musculus with 27 samples.

Results

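The transcripts described here held a larger share of the polyadenylated RNA of mouse embryonic stem cells when the cells were given triptolide, at both sampling times. They were chosen by their own measured ratios: a mean level of at least 10 CPM (reads of a transcript per 1000000 reads of its library) over 4 libraries, and a log2 ratio of CPM, triptolide over untreated, of 1 or more at 3 h and also at 6 h. Of the 137271 transcripts listed, 10926 had a mean level of 10 CPM or higher, and 91 of these met the rule. The rule leaves out 44 identifiers by name, 27 of which passed the CPM limit; none of the 27 was 2-fold higher at 3 h. Because the triptolide ratios chose the 91, those ratios are a description of them and support nothing.

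The cells were of the KH2 line, mouse embryonic stem cells, with the genotype given as KH2:13 Flag-BAP-H3 tags, that is, carrying tagged histone H3. All were grown with LIF, a MEK1/2 inhibitor (1 µM) and a GSK3 inhibitor (3 µM), and were blocked at the start of S phase by thymidine given in 2 rounds. The 4 groups were untreated cells at 3 h after release, cells with 1 µM triptolide at 3 h, untreated cells at 6 h, and cells with 1 µM triptolide at 6 h. Each group had 1 library, of 27443889, 27242760, 24913767 and 19145129 reads in that order, so every difference below is between 2 libraries, with no replicate and no test. The labels do not give the time at which the drug was added. The other 23 samples of the series are not analysed here.

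Triptolide targets the XPB subunit of TFIIH, a factor that opens DNA at promoters, and so stops RNA polymerase II from starting new transcripts. When synthesis stops, each RNA is lost at its own rate, and messenger and long noncoding RNAs differ widely in how long they last. A share of reads is relative: if most RNA is lost, a transcript that is lost more slowly takes a larger share with no new synthesis. With no spike-in values used here, a larger share and a larger amount of RNA per cell cannot be told apart.

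Transcripts are named in the files by Ensembl mouse identifiers alone. No identifier (0 of 137271) could be matched to a gene table, so no gene symbol, gene role, sequence or genome position is given, and the markers of embryonic stem cells and of other cell types could not be read. Only 2 identifiers are printed, and the other members, all of different length, are called by their length in nucleotides (nt).

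The larger share was held by a small group. At 3 h, 142 of 10926 transcripts (1.30%) were 2-fold or more higher with triptolide, and at 6 h 420 (3.84%) were. With the left-out identifiers removed, the numbers were 142 and 411. The 91 that were higher at both times were 0.833% of the 10926, 64.1% of the list at 3 h and 22.1% of the list at 6 h. Of the 51 higher at 3 h only, 31 had a ratio above 1-fold at 6 h, 20 a ratio below it, and 7 were 2-fold or more lower at 6 h. Of the 320 higher at 6 h only, 273 had a ratio above 1-fold at 3 h and 47 a ratio below it. Over the 10899 transcripts with the left-out identifiers removed, 46.0% were above 1-fold at 3 h and 38.7% at 6 h. Of these 10899, 2319 were 2-fold or more lower at 6 h, so the 7 above are not read as a reversal. The median log2 ratio of the 10899 was -0.03 at 3 h and -0.22 at 6 h, slightly below no change. Scaling by TMM factors raised all ratios by 0.04 at 3 h and 0.22 at 6 h, which took both medians to about 0 and the list at 6 h to 701 of the 10926.

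**Figure D1:**
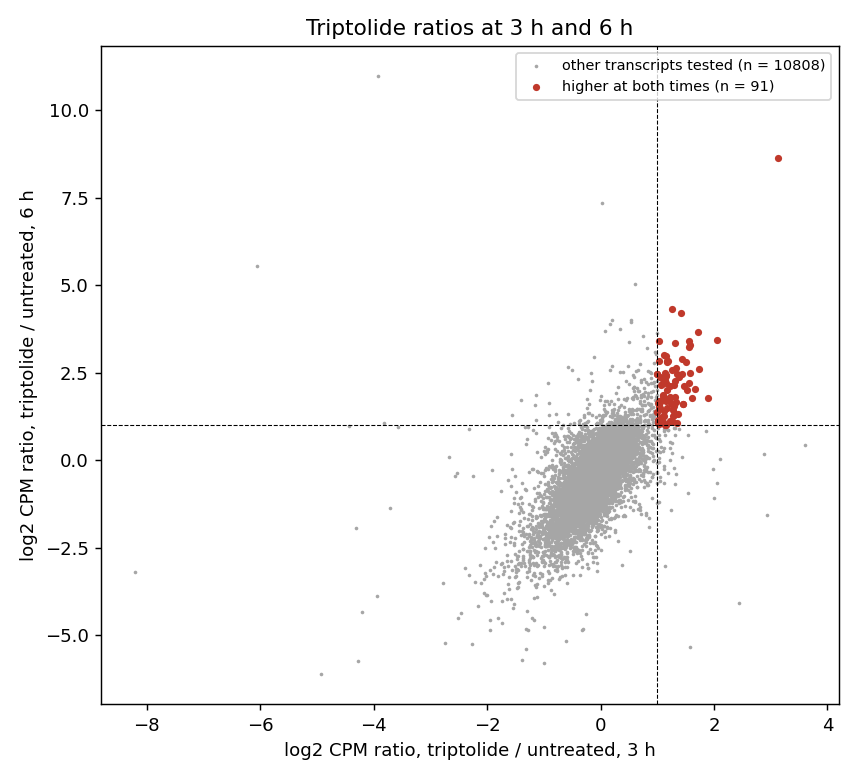
Each point is 1 transcript that averaged at least 10 CPM; the x axis is the log2 CPM ratio, triptolide over untreated, at 3 h and the y axis the same ratio at 6 h, and dashed lines mark the limit of 1 on each. The 91 members (red) fill the upper right corner by the rule, with 10808 other transcripts in grey.

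As a group, the members took a small part of each library. Together they took 0.266% of the reads in the untreated library at 3 h and 0.597% with triptolide, and 0.370% untreated and 1.17% with triptolide at 6 h. These are ratios of 2.25 at 3 h and 3.16 at 6 h. One member, the 3329 nt transcript, supplied 46.8% to 56.0% of these reads in each library. Without it the joint share was 0.135% untreated and 0.312% with triptolide at 3 h, a ratio of 2.31. At 6 h it was 0.163% untreated and 0.621% with triptolide, a ratio of 3.82. The exact binomial (Clopper-Pearson) 95% interval of the largest share was 1.16% to 1.17%; intervals of this kind cover counting error only, because no molecular identifiers were counted and reads are not separate molecules. The left-out identifiers took 4.70% and 5.41% of reads at 3 h, untreated and treated, and 4.21% and 6.56% at 6 h.

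Most members were under the filter limit of 10 CPM without the drug, which the rule in part sets. It asks for treated values at least 2-fold higher and a mean that includes them. Over all 4 libraries the members' median level was 17.5 CPM, against 28.6 CPM for the 10899 transcripts compared. The share of those under 10 CPM without the drug was not counted. Their median level was 7.54 CPM untreated and 17.3 CPM with triptolide at 3 h, and 9.79 CPM and 37.0 CPM at 6 h. In 55 of the 91 the mean over both untreated libraries was under 10 CPM, so these passed the filter on low values only through the treated libraries, where they had to be high. The other 36 reached a mean of 10 CPM without the drug. Those 36 had median log2 ratios of 1.11 at 3 h and 1.67 at 6 h, against 1.19 and 1.83 for all 91.

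The log2 ratios at 3 h were bunched near the limit and those at 6 h were spread wide. At 3 h, 77 members had a log2 ratio of 1 to 1.5, 12 of 1.5 to 2, and 2 of 2 or more. At 6 h, 47 had a log2 ratio of 1 to 2, 33 of 2 to 3, 8 of 3 to 4, and 3 of 4 or more. The 3 h ratio was the smaller of the pair in 82 of the 91, and it therefore decided membership for most of them. The 6 h ratio exceeded the 3 h ratio in those 82, against 36.5% of all transcripts compared, and by a log2 difference of 1 or more in 33. Both ratios chose the members, so this count is in part set by the rule. The 6 h ratio was the larger in 0 of the 51 higher at 3 h only and in all 320 higher at 6 h only.

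The edge of the rule cut through a continuous range of values. The 5 members nearest to the limit had smaller log2 ratios of 1.0018 to 1.0065, and the 5 non-members nearest to it 0.9899 to 0.9955. Within 0.1 of the limit lay 30 members on one side and 39 non-members on the other. The 8038 nt member, just inside, was at 33.0 and 66.2 CPM at 3 h, and at 39.9 and 104.4 CPM at 6 h, untreated and treated. The 3171 nt transcript, just outside, was at 10.5 and 20.9 CPM at 3 h, and at 12.3 and 39.7 CPM at 6 h. Counting error alone spans this edge: the lower bound of the exact conditional binomial 95% interval reached 2-fold in 44 members at 3 h and in 77 at 6 h, and in 39 at both.

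The first 2 members by the naming rule, which ranks by the lower bound of the counting interval at the weaker time, were both low without the drug. ENSMUST00000219337.1 (436 nt) had 18 reads (0.656 CPM) untreated and 157 reads (5.76 CPM) with triptolide at 3 h. At 6 h it had 0 reads untreated, a result that up to 3 reads (0.120 CPM) could give, and 923 reads (48.2 CPM) with triptolide. Its share was 8.79-fold higher at 3 h (log2 ratio 3.14, interval 2.43 to 3.93). At 6 h the ratio was 400.4-fold with 0 set to 3 reads (log2 ratio 8.65, interval 7.09 to 10.9). This transcript was the member with the largest ratio at either time, and its estimates in the untreated libraries rest on very few reads.

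ENSMUST00000181897.1 (2586 nt) had 2.73 and 2.37 CPM in the untreated libraries at 3 h and 6 h, and 11.4 and 25.5 CPM with triptolide. Both treated values lay far above both untreated ones. It was 4.16-fold higher at 3 h (log2 ratio 2.06, interval 1.69 to 2.44) and 10.8-fold higher at 6 h (log2 ratio 3.43, interval 3.04 to 3.85). These 2 were the only members with a log2 ratio of 2 or more at both times. The remaining members singled out below were picked after their values were seen.

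The 6 most abundant members averaged 100 CPM or more. The 3329 nt transcript was the most abundant by far, at 1308 CPM untreated and 2851 CPM with triptolide at 3 h, and at 2069 CPM untreated and 5455 CPM with triptolide at 6 h. Its ratio was 2.18-fold at 3 h and 2.64-fold at 6 h, and its untreated share also differed between the times, with a log2 ratio of 0.66 for 6 h over 3 h. The 461 nt transcript was at 58.8 and 128.0 CPM at 3 h, and at 69.6 and 566.2 CPM at 6 h, so that a 2.18-fold ratio at 3 h was followed by one of 8.14-fold at 6 h. The 955 nt transcript was at 55.8 and 171.2 CPM at 3 h, and at 93.7 and 325.8 CPM at 6 h. Its ratios of 3.07-fold and 3.48-fold were close to each other.

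The remaining 3 abundant members were 2.04-fold to 2.42-fold higher at 3 h and 2.11-fold to 3.27-fold higher at 6 h. The 440 nt transcript was at 108.8 and 222.1 CPM at 3 h, and at 130.3 and 426.1 CPM at 6 h. The 906 nt transcript was at 133.9 and 273.1 CPM at 3 h, and at 168.4 and 355.2 CPM at 6 h. The 830 nt transcript was at 111.0 and 268.5 CPM at 3 h, and at 70.5 and 191.9 CPM at 6 h. It alone of the 6 had a lower share at 6 h than at 3 h, in the untreated and in the treated pair alike. Membership was less frequent at a higher mean level. At a mean of 10 to 20 CPM, 51 of 3767 (1.35%) were members, and 25 of 3774 (0.662%) at 20 to 50 CPM. At 50 to 100 CPM 9 of 1783 (0.505%) were members, and 6 of 1575 (0.381%) above. The mean includes the treated libraries that chose the members, so these frequencies depend in part on the rule. The part of counting error at low levels was not tested.

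Every treated library was also set against every untreated one, using the same values that chose the members. In 90 of the 91 members the lower treated value exceeded the higher untreated value. The rule nearly fixes this count, which supports nothing. A member can fail only if its untreated pair differs 2-fold or more, as 0.622% (higher at 6 h) and 0.567% (lower) of all transcripts did. The exception was the 1234 nt transcript, at 3.64 and 8.07 CPM untreated and 7.41 and 23.1 CPM treated at 3 h and 6 h, where the treated 3 h value lay below the untreated 6 h value. The median gap was 1.83-fold, and in 34 members the lower treated value was 2-fold or more above the higher untreated one.

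Under the drug the members parted into 3 courses between 3 h and 6 h. This is a description, since all 4 libraries, treated and untreated, entered the rule. In 46 members the treated share was 2-fold or more higher at 6 h than at 3 h, against 2.12% of the 10926 transcripts. In 37 it was higher by less than 2-fold, and in 8 it was lower. Of the 36 members that reached 10 CPM without the drug, 10 were 2-fold or more higher in this way. The count of 46 thus depends in part on the filter, which many members passed only through the treated libraries. The median treated log2 ratio of 6 h over 3 h was 1.03 over the members and -0.20 over all compared. In the untreated pair the members' median was 0.33 and that of all compared -0.01. Of the members, 65 (71.4%) were above 1-fold in the untreated pair, against 48.3% of all compared. The untreated median moved with the choice of transcripts: it was 0.89 in those higher at 3 h only and -0.22 in those higher at 6 h only. The members' untreated values are thus no separate evidence. In that pair 2 members were 2-fold or more higher (0.622% of all transcripts) and 1 was 2-fold or more lower (0.567% of all).

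**Figure D2:**
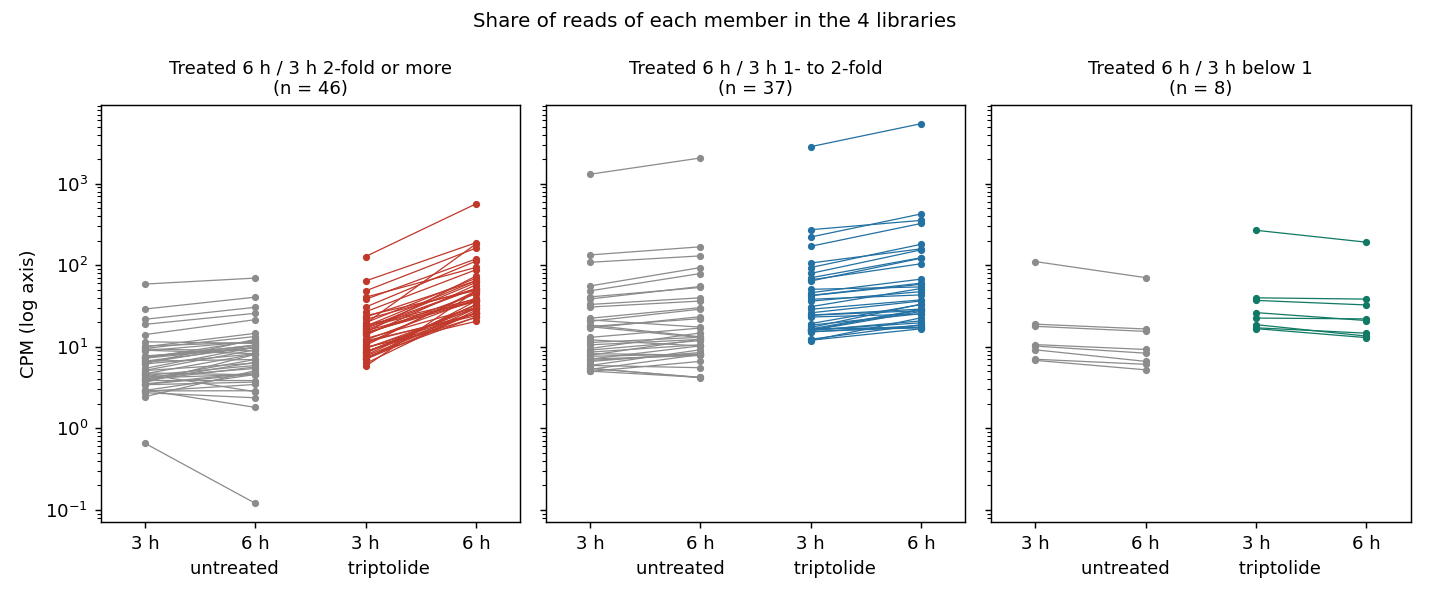
CPM of every member on a log axis, with the untreated pair (grey) and the triptolide pair (colour) joined from 3 h to 6 h, in 3 panels by the treated ratio of 6 h over 3 h; the 1 value at 0 reads is drawn at its limit of 0.120 CPM. The 46 members of the first panel all climb with triptolide, while their untreated pairs run in both directions (37 up and 9 down), and the 8 of the last panel slope downward in both pairs.

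The 46 that went on to higher shares had a median log2 ratio of 1.20 at 3 h and 2.48 at 6 h, and the 37 in between medians of 1.17 and 1.61. The 465 nt transcript showed the largest step, from 19.3 to 182.4 CPM with triptolide, a treated log2 ratio of 3.24. Its untreated values were 7.25 and 9.79 CPM. The 2529 nt transcript went from 7.05 to 36.5 CPM with triptolide, with 2.95 and 1.81 CPM untreated, and was 2.39-fold higher at 3 h and 20.2-fold higher at 6 h. The 235 nt transcript was at 30.7 and 112.5 CPM treated, with 9.36 and 8.91 CPM untreated. Among long members, the 4158 nt transcript was at 26.9 and 88.1 CPM treated and at 9.07 and 8.23 CPM untreated, and the 5878 nt transcript at 7.16 and 29.6 CPM treated and at 2.88 and 2.89 CPM untreated.

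The 8 that were lower at 6 h than at 3 h with triptolide were also lower at 6 h without it, in all 8. A 2-fold ratio at 6 h, which the rule requires, limits how high their untreated share there could be. This agreement is therefore in part set by the rule. The treated log2 ratios of 6 h over 3 h of these 8 ran from -0.49 to -0.03 and their untreated ones from -0.66 to -0.20. Their triptolide ratios were therefore much alike at both times, with medians of 1.18 at 3 h and 1.26 at 6 h. They measured 830 nt to 3698 nt. The highest log2 triptolide ratio among them at 6 h was 1.44.

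Length was not a term of the rule, but CPM is not divided by length, so the filter is not independent of it. The members' median length was 2207 nt (25th to 75th percentile 895.5 to 3122.5 nt), against 2615 nt (1510 to 4072.5 nt) for all compared. It was 1765 nt in those higher at 3 h only, 2018.5 nt in those higher at 6 h only, and 2912 nt in the 283 transcripts 2-fold or more lower at both times. Membership was most frequent under 500 nt, at 14 of 326 transcripts (4.29%). It was 12 of 1292 (0.929%) from 500 to 1000 nt, 15 of 2395 (0.626%) to 2000 nt, 23 of 2294 (1.00%) to 3000 nt, 18 of 1759 (1.02%) to 4000 nt and 9 of 2833 (0.318%) above. Lengths of 2000 nt or more were held by 50 members (54.9%), against 6886 of all compared (63.2%).

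The short members differed from the long ones mainly at 6 h. The 14 under 500 nt had median log2 ratios of 1.16 at 3 h and 2.89 at 6 h, and 12 of the 14 were 2-fold or more higher at 6 h than at 3 h with triptolide. The lowest of the 14 on that treated ratio was at 0.93. The 9 of 4000 nt or more had medians of 1.23 at 3 h and 2.02 at 6 h, and 4 of them were 2-fold or more higher in this way. Over the 10926 transcripts of all lengths that share was 2.12%, and it was not counted within length classes. All transcripts compared also differed by length at 6 h, with medians of 0.41 under 500 nt and -0.54 at 4000 nt or more. The 6 h contrast is thus not particular to the members. Without the drug the 14 had median levels of 6.47 CPM at 3 h and 8.47 CPM at 6 h. The 9 had 5.03 and 7.83 CPM. Both groups thus passed the filter in part through the treated libraries, which favours high treated values, and this was not separated from length. Across the 91 members the Spearman correlation of length with the log2 ratio was 0.03 at 3 h and -0.30 at 6 h. Over all compared it was -0.17 and -0.30; transcripts share their libraries and are not replicates, so these are descriptions.

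**Figure D3:**
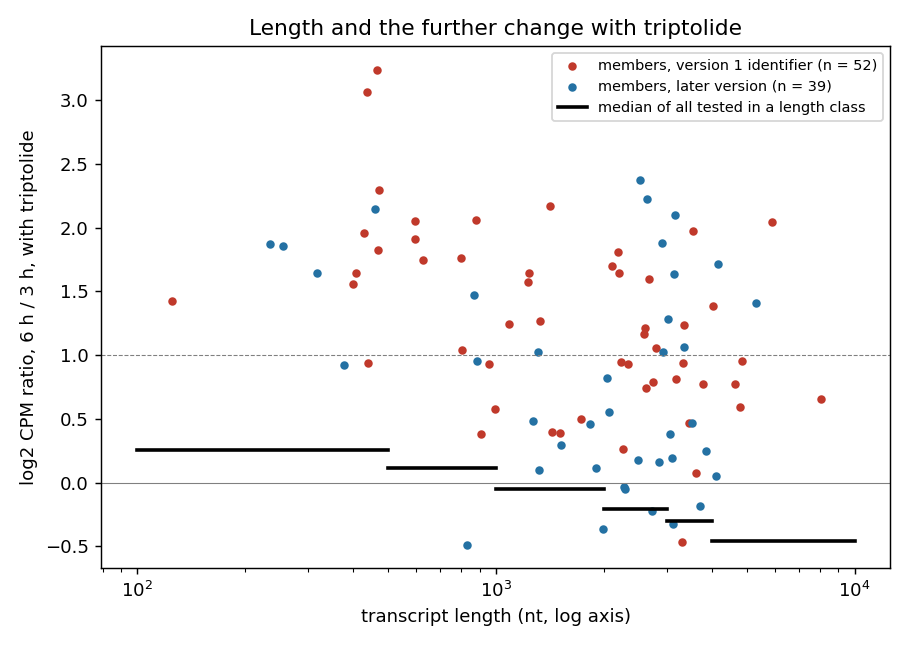
Transcript length (log axis) against the log2 CPM ratio of 6 h over 3 h with triptolide, for the 91 members coloured by the version of their identifier; black bars give the median of all transcripts compared in each of 6 length classes. Members under 500 nt lie between 0.93 and 3.24, and longer ones range from -0.49 to 2.37, while the medians of all transcripts run from 0.25 in the shortest class to -0.46 in the longest.

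Identifiers carried a further feature that the rule did not use. An Ensembl identifier ends in a version number that goes up when the transcript model is revised, so version 1 marks a model that had not been changed since it was entered. Of the 91 members, 52 (57.1%) were at version 1, against 1907 of 10899 (17.5%) over all compared. The share was 41.2% (21 of 51) in those higher at 3 h only, 41.6% (133 of 320) in those higher at 6 h only and 16.3% (46 of 283) in those lower at both times. Put the other way, 2.73% of version 1 transcripts were members and 0.434% of the others. Among the 36 members that reached 10 CPM without the drug, 19 (52.8%) were at version 1, against 17.2% of all transcripts that did so.

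The difference in version was not seen under 500 nt and was seen at greater length. Under 500 nt, 64.3% of the members and 61.7% of all compared were at version 1. From 500 to 1000 nt they were at 75.0% and 39.7%, and 53.3% and 15.6% from 1000 to 2000 nt. They were 52.2% and 13.6% from 2000 to 3000 nt, 44.4% and 12.5% from 3000 to 4000 nt, and 66.7% and 10.2% above. The courses under the drug differed too: 30 of the 46 with the treated 6 h share 2-fold or more higher were at version 1, 21 of the 37 in between, and 1 of the 8 that were lower. Version 1 members had a median log2 ratio of 2.08 at 6 h and later versions 1.66. Their median lengths were 1916.5 nt and 2496 nt, and neither this contrast nor that of the courses was separated from length.

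**Figure D4:**
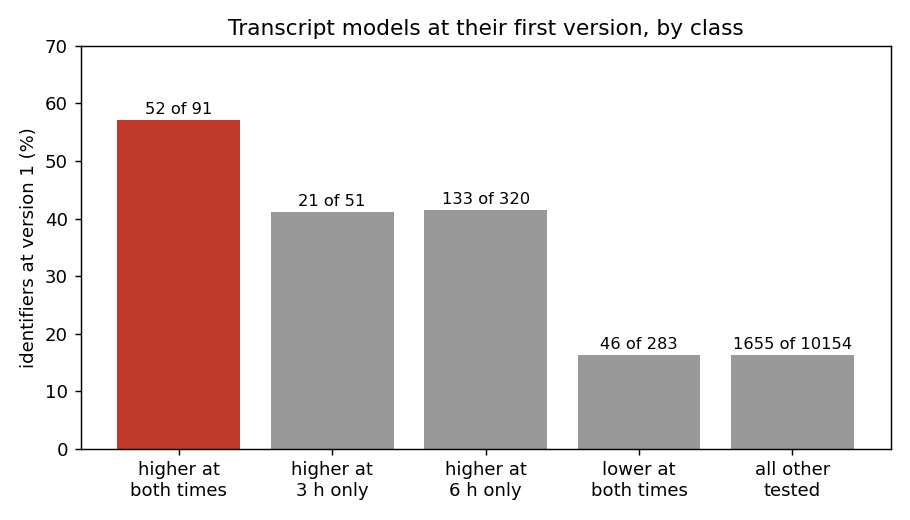
Percent of identifiers at version 1 in 5 classes of the transcripts compared, with the counts above the bars. The 91 members (red) are at 57.1%, the 2 classes higher at one time at 41.2% and 41.6%, and those lower at both times and all others at 16.3%.

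A quantifier of this kind divides reads that match several transcripts among them. Of the transcripts compared, 116 of 10899 (1.06%) had whole-number estimates in every library (within 1e-06), the pattern of a transcript that shares no reads. Of the 91 members 0 were among them, a count close to what that share gives, so nothing is read from it. Of the 116, 0 were 2-fold or more higher at 3 h and 3 at 6 h. The one with the highest log2 ratio at 3 h, of 3255 nt, was at 23.2 and 41.8 CPM at 3 h, and at 15.0 and 41.0 CPM at 6 h, log2 ratios of 0.85 and 1.45. The part that division of reads plays in the members' ratios was not tested. The deposited TPM values, which divide by effective length, were compared with 0.1 TPM added to each. On these, 56 of the 91 met the limit at both times, fewer by over 1.5 times. The medians of the 91 were 1.09 at 3 h and 1.53 at 6 h. Adding 0.1 TPM pulls the ratios of low values toward 1-fold, and its part in the drop was not separated.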

How the data were processed

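Polyadenylated RNA was measured in 4 libraries, 1 in each group. Per the file headers, the authors deposited an estimated count and a TPM value for each transcript, beside its length and effective length, in the layout of the Salmon quantifier, whose version and transcript set were not given in the sources used. The submitters' processing notes list SAMtools 1.0.6, Bowtie 1.0.0, FastQC 0.11.4 and the builds mm10 and dm3, without saying which were applied to RNA. The deposited estimated counts are not normalized; the deposited TPM values are scaled by effective length to 1000000.

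Estimated counts were rounded, expressed as CPM and compared as log2 ratios, with 0 set to 3 reads; a call is a 2-fold difference in size, without a test. Intervals are exact conditional binomial at 95%, with scipy 1.17.1. Scaling alternatives used edgeR 4.0.16 and DESeq2 1.42.0; the procedure was tested on simulated data. The naming rule ranks members by the lower bound of the counting interval at the weaker time; members with whole estimates came first, and there were 0 of these. Members, rules and lists were chosen with earlier results of these data known. Lists of genes and of cell type markers, fixed for gene symbols, were not run because identifiers are not paired with symbols.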

Additional observations from a re-analysis of the deposited data

How the results depend on the processing

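The number of members depended most on the filter and the fold limit. With the mean CPM limit at 1, 5 and 50 there were 823, 181 and 15, and 2962 with no filter beyond 10 reads; 290 at 1.5-fold and 2 at 4-fold; 39 with counting intervals wholly beyond 2-fold; 56 in TPM; and 0 among whole-number transcripts. Among alternatives chosen after seeing the data it was 34 with every treated set against every untreated library and 36 with the filter on untreated libraries. The other 7 (both count-based scalings, totals without the left-out identifiers, median centring, 0 set to 1 read, thinning, 100 reads in each library) gave 79 to 115. Thinning gave 87, of which only 77 were among the 91, so its similar number hides a change of transcripts. TMM and DESeq2 factors raised all 6 h ratios by 0.22 and 0.23, and TPM lowered their median by 0.29. The first 2 kept all 91 members. That outcome was fixed, because both also raised all 3 h ratios by 0.04, so it supports nothing. Totals without the left-out identifiers and median centring likewise raised the ratios at both times. Requiring 100 reads in each library could only remove members. The transcripts higher at 3 h numbered 1732, 311 and 18 at a mean CPM of 1, 5 and 50, 8583 with no filter and 0 among whole-number transcripts. Those higher at 6 h numbered 701 with TMM, 727 with DESeq2 factors, 244 in TPM, 3435, 861 and 77 at a mean CPM of 1, 5 and 50, 11184 with no filter and 7 among whole-number transcripts, left-out identifiers included. The share of the compared transcripts that were members also moved with the filter, from 0.444% at a mean CPM of 50 to 2.56% at 1, and the cause was not tested. The members' median untreated and treated ratios of 6 h over 3 h kept their sign under TMM, DESeq2 factors, totals without the left-out identifiers and TPM. Median length moved with the filter, from 2207 nt to 906 nt at a mean CPM of 50 and 1295.5 nt with no filter. In the 9 other alternatives where it was taken, it was 1511 to 2246.5 nt. Sums per gene were not run, since identifiers are not paired with genes. No paired analysis was possible because each group has 1 library and the groups share 1 replicate number. Depth limits the scarcest values: 12 members had under 100 reads in a library.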
